A study of Mus musculus with 6 samples.

Results

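Glycolysis is the chain of cytosolic enzymes that splits glucose into pyruvate and yields ATP without oxygen, and lactate dehydrogenase then reduces the pyruvate to lactate. Most of these enzymes exist as several isoenzymes, and the ones described here are the forms found in most tissues of the growing mouse. Insulin and insulin-like growth factors are known to raise glucose uptake and glycolysis, in part through the hypoxia-inducible factor HIF1A, which drives many glycolytic genes, also when oxygen is low. In the developing inner ear, the cartilage of the otic capsule is poor in vessels and depends largely on glycolysis.

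The 10 genes were Hk1, Gpi1, Pfkl, Aldoa, Tpi1, Gapdh, Pgk1, Pgam1, Eno1 and Ldha, taken by name, with every probe set annotated to one of them alone. They had 16 such probe sets among the 22626 tested, covering 7 genes of the 12393 with a tested probe set. Hk1 and Pfkl had 2 probe sets each, Aldoa 4, Tpi1 and Pgk1 3 each, and Pgam1 and Ldha 1 each. Gapdh was read by 3 further probe sets that the array carries as RNA controls, which took no part in the test across probe sets. Another 3 probe sets shared between Gapdh or Hk1 and other genes were not used, and Gpi1 and Eno1 were not analysed here.

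The samples were cochleae of mouse embryos at embryonic day 18.5, from crosses of heterozygous parents on a C57BL/6J background. There were 3 pools from Igf1 null embryos and 3 from their wild type counterparts, each pool holding 4 cochleae still in the otic capsule but freed of vestibular organs, and each pool gave 1 Affymetrix array. The mutation was inherited from heterozygous parents and so was not limited to the ear, and the labels do not describe the mutant allele. Titles and descriptions gave the genotype, but the source names carried the wild type sign for the null pools too, and for wild type replicate 2 gave an age that differed slightly from its other labels. The titles also held a number of unstated meaning, 14 for replicate 1 of both genotypes and 16 for replicates 2 and 3.

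Signal of the targeted gene was lower in the null pools. At its brightest probe set Igf1 had log2 signals of 10.60, 10.46 and 10.72 in the null arrays, against 11.14, 10.99 and 11.02 in the wild type arrays, and all 3 Igf1 probe sets were without overlap between the genotypes. The largest Igf1 difference was -0.996 ± 0.12 (SE, adjusted p = 0.599, limma). Cochlear markers were present (Tecta averaged 9.39 in null and 9.12 in wild type arrays, Coch 8.96 and 8.60), while Otos, a fibrocyte gene, was at 3.59 and 3.21. As deposited, array medians ran from 5.61 (null replicate 1) to 6.37 (null replicate 2), so all levels below are log2 signals after quantile normalization, and differences are null minus wild type. With 3 arrays per genotype, the precision of each value is limited.

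Promoters of the members were searched for ACGTG and GCGTG, the core letters bound by hypoxia-inducible factors, on both strands of the 300 bases from 250 before to 50 after each RefSeq start (build GRCm38.p6). One or the other was in a window of 8 of the 10 genes (80%), against 46.7% of all 27025 genes with a window. At least 3 matches were in 4 of the 10 genes (40%), against 10.2% of all genes. The E box CACGTG, which contains ACGTG on both strands, was in 1 member, Ldha (10%), against 8.09% of all genes. The 4 promoters with the most matches are shown because they are where these letters are densest, with the matches in capitals.
Ldha promoter (chr7:46845554-46845853, plus strand): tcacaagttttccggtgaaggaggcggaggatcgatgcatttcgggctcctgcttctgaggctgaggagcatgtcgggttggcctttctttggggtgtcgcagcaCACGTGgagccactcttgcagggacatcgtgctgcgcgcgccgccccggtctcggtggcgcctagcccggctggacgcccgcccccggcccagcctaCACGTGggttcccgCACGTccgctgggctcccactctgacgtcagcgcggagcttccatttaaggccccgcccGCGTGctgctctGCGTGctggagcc
Hk1 promoter (chr10:62340372-62340671, minus strand): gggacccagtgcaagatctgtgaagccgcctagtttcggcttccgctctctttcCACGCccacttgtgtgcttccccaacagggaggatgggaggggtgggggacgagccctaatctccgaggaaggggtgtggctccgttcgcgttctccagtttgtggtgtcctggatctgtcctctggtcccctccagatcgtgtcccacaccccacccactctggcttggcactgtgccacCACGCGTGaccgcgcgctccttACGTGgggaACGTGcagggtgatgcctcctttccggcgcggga
Pgam1 promoter (chr19:41911621-41911920, plus strand): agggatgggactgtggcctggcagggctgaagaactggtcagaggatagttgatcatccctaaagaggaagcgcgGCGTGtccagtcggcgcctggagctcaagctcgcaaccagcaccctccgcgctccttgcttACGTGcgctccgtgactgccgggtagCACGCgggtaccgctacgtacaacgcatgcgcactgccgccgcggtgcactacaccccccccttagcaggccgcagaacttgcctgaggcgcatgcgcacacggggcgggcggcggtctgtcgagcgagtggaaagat
Gapdh promoter (chr6:125165724-125166023, minus strand): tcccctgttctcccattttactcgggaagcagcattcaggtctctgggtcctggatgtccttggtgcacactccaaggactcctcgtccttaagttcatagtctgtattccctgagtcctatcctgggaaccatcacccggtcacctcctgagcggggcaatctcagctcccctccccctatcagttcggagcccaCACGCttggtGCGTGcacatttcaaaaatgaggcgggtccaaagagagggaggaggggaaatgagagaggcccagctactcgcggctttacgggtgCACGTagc

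The Ldha window held 7 matches, 5 of ACGTG and 2 of GCGTG, and 2 pairs of the ACGTG matches are the opposite strands of the E boxes that begin 145 and 48 bases before the start. The Hk1 window, which belongs to 1 of the 2 starts listed for that gene, held 5, and the other start had 0. Pgk1 had 2 matches of ACGTG, beginning 150 and 131 bases before its start, while Tpi1 and Gpi1 had 0. A match in letters is not a binding site.

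Signal of the 7 glycolytic genes with a tested probe set leaned lower in null cochleae after quantile normalization, by small amounts. All 7 genes had a lower mean in the null arrays at their brightest probe set, between -0.10 for Ldha and -0.27 for Pgk1, with a median of -0.22 (Tpi1, at 0.858 of the wild type level). Of the 16 probe sets 15 were lower, with a median of -0.22 and a range from -0.33 to 0.04, against 49.5% lower and a median of 0.0034 over all probe sets. After median centring 14 of the 16 were lower, against 46.5% of all probe sets. With that scaling Ldha was higher, as were the Gapdh control probe sets, which these counts leave out. On the deposited values all 16 were lower, but so were 73.8% of all probe sets, whose median was -0.15 on that scale. Among genes 48.9% were lower in all, and among probe sets above the 80th percentile of level, where 14 of the 16 lay, 48.6% were lower. The mutual likeness of probe sets for 1 transcript means that the 15 are not 15 separate observations. The members were also chosen after an earlier analysis of these arrays had shown glycolysis genes as lower, so these shares are no independent evidence.

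No member passed the test across probe sets. Adjusted p ran from 0.961 (Pfkl) to 0.999 (Pgk1) in limma, as 0% of all probe sets and 0% of all genes passed an adjusted p of 0.05. At an unadjusted p under 0.05 stood 1 member probe set, of Pfkl, where 2.59% of all probe sets and 0.862% of those above the 80th percentile were called with lower signal. By gene it was 1 of the 7, Pgk1, against 2.4% of all genes. With the replicate block these counts were 0 of 16 and 0 of 7, against 2.98% of all probe sets and 3.03% of all genes. In 5 of the 16 probe sets every null array lay below every wild type array, against 5.33% of all probe sets and 5.08% above the 80th percentile, and by gene in 3 of 7, against 4.99% of all genes. After median centring that count was 1 of 16, against 4.8% of all probe sets, and 0 of 7 genes, against 4.28% of all genes, and the median of the 16 was -0.12. Because RNA came from whole tissue, fewer cells of a type and less RNA per cell cannot be told apart.

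**Figure D1:**
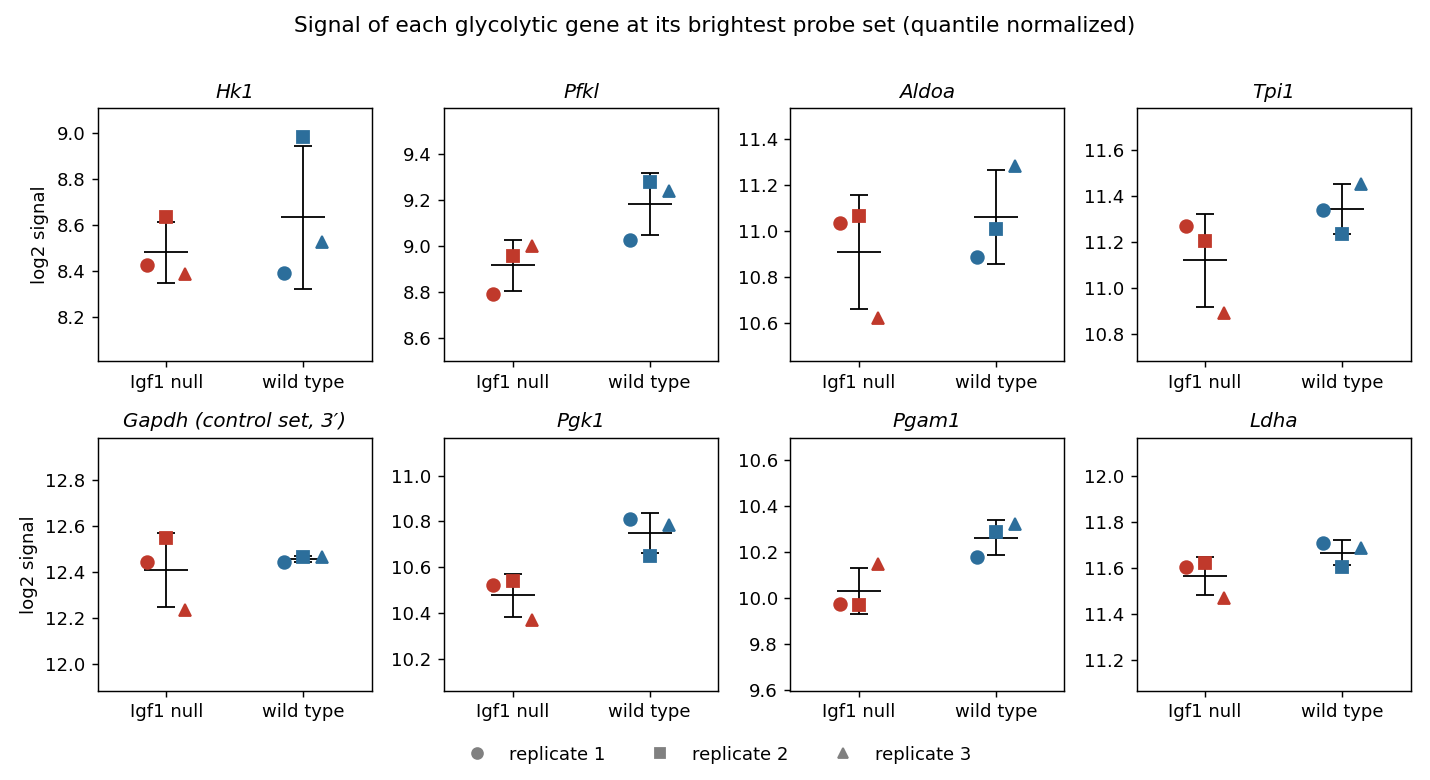
Log2 signal (vertical axis, each panel spanning the same range of log2 units) of 8 glycolytic genes in the 3 Igf1 null and 3 wild type arrays, at the brightest probe set, in pathway order. Points are arrays, bars the mean and SD. Pfkl, Pgk1 and Pgam1 have no overlap between the genotypes after quantile normalization (none of the 3 stays free of overlap after median centring), while the others overlap.

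Hexokinase opens the pathway by phosphorylating glucose, and Hk1 is its widespread form, the main one in brain. At its brighter probe set (1437974_a_at) Hk1 had signals of 8.43, 8.63 and 8.39 in the null arrays, against 8.39, 8.98 and 8.52 in the wild type arrays. At the dimmer one (1420901_a_at) the signals were 7.45, 7.69 and 7.11 in null and 7.40, 8.12 and 7.52 in wild type arrays. Replicate 2 was the highest array of each genotype at both probe sets, and the genotypes overlapped. The differences of Hk1 were -0.15 ± 0.19 (SE, 95% interval -0.64 to 0.34) and -0.26 ± 0.26 (-0.91 to 0.40), the widest intervals of any member. Without wild type replicate 2 the Hk1 difference at the brighter probe set was 0.02.

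Phosphofructokinase catalyses the committed step of glycolysis, and Pfkl encodes its liver-type subunit. Pfkl stood at 8.79, 8.96 and 8.9998 in the null arrays and at 9.03, 9.28 and 9.24 in the wild type arrays (1439148_a_at). At its other probe set (1450269_a_at) Pfkl had 8.32, 8.42 and 8.40 in null, against 8.63, 8.68 and 8.84 in wild type arrays. No null array reached a wild type array at either probe set, although null replicate 3 and wild type replicate 1 lay only 0.03 apart at the brighter one. Pfkl differed by -0.27 ± 0.13 (SE, adjusted p = 0.982, limma) and by -0.33 ± 0.11 (adjusted p = 0.961, limma). The second of these, at 1450269_a_at, corresponds to 0.794 of the wild type level and has an interval from -0.61 to -0.05. The exact permutation test gave p = 0.1 for both, the smallest value that 3 against 3 arrays allow.

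Aldolase A, encoded by Aldoa, cleaves fructose bisphosphate and is the form of muscle and most fetal tissues. Its brightest probe set (1434799_x_at) read 11.03, 11.07 and 10.62 in the null arrays, against 10.89, 11.01 and 11.29 in the wild type arrays. The other 3 gave the same order of arrays at their ends, as null replicate 3 was the lowest and wild type replicate 3 the highest of the 6 arrays at all 4 Aldoa probe sets. Between these extremes the genotypes overlapped. The 4 differences of Aldoa ran from -0.24 ± 0.17 to -0.12 ± 0.19 (SE), with exact permutation p-values from 0.3 to 0.6, and without null replicate 3 the probe set 1433604_x_at had a difference of 0.03. All 4 carry the suffix that marks probes able to bind other transcripts.

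Triose phosphate isomerase, encoded by Tpi1, interconverts the triose phosphates that aldolase releases. At 1452927_x_at Tpi1 had 11.27, 11.20 and 10.89 in the null arrays, against 11.34, 11.23 and 11.45 in the wild type arrays. Null replicate 3 was again the lowest and wild type replicate 3 the highest at each of its 3 probe sets, and the genotypes overlapped. Differences of Tpi1 were -0.22 ± 0.15, -0.22 ± 0.18 and -0.10 ± 0.18 (SE), the last (1435659_a_at) turning to 0.0057 without null replicate 3 and to 0.0068 without wild type replicate 3.

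Gapdh encodes the enzyme that makes the NADH of glycolysis, and its mRNA is read along its length by the array's control probe sets. The 3′ probe set read 12.44, 12.55 and 12.23 in null arrays, against 12.44, 12.46 and 12.46 in wild type arrays. The middle probe set of Gapdh gave 12.33, 12.33 and 11.95 in null and 12.21, 12.31 and 12.32 in wild type arrays, and the 5′ probe set 12.26, 12.19 and 11.80 in null and 12.23, 12.17 and 12.22 in wild type arrays. The wild type arrays lay close together, and null replicate 3 alone stood below all others at each of the 3. Differences of Gapdh were -0.05 at the 3′, -0.07 at the middle and -0.12 at the 5′ probe set, with SE of 0.12, 0.15 and 0.16 and exact permutation p-values of 0.8, 1 and 0.7. These probe sets lie near the top of the range, and how far quantile normalization sets their values there was not tested. The direction at Gapdh flipped with the scaling, to 0.16, 0.13 and 0.06 after median centring.

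Phosphoglycerate kinase, encoded by the X-linked gene Pgk1, makes the first ATP that glycolysis gains. Pgk1 had 10.52, 10.54 and 10.37 in the null arrays, against 10.81, 10.65 and 10.78 in the wild type arrays (1417864_at). At 1438640_x_at the signals of Pgk1 were 10.57, 10.51 and 10.30 in null and 10.61, 10.65 and 10.79 in wild type arrays. The null arrays were below the wild type arrays at both, by -0.27 ± 0.11 and -0.22 ± 0.13 (SE, adjusted p = 0.982 each, limma, and exact permutation p = 0.1 each). The third and dimmest probe set of Pgk1 (1439435_x_at) did not follow them, with 7.72, 7.39 and 7.54 in null and 7.38, 7.31 and 7.84 in wild type arrays and a difference of 0.04 ± 0.19, the only member probe set with a higher mean in the null arrays. It was 0.08 after median centring and -0.10 on the deposited values, where the median of all probe sets was -0.15.

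Phosphoglycerate mutase, encoded by Pgam1 in most tissues outside muscle, moves the phosphate group before the enolase step. Pgam1 had 9.97, 9.97 and 10.15 in the null arrays, against 10.18, 10.29 and 10.32 in the wild type arrays (1426554_a_at). The genotypes did not overlap, by a margin of 0.03 between null replicate 3 and wild type replicate 1. Pgam1 differed by -0.23 ± 0.11 (SE, interval -0.52 to 0.05, adjusted p = 0.982 in limma, exact permutation p = 0.1).

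Lactate dehydrogenase A, encoded by Ldha, turns pyruvate into lactate and is a standard target of HIF1A. Ldha read 11.61, 11.62 and 11.47 in the null arrays, against 11.71, 11.61 and 11.69 in the wild type arrays (1419737_a_at). Only null replicate 3 stood clearly apart, and null replicates 1 and 2 lay at the level of wild type replicate 2. The difference of Ldha was -0.10 ± 0.11 (SE, interval -0.37 to 0.16, exact permutation p = 0.3), and it turned to 0.02 after median centring.

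**Figure D2:**
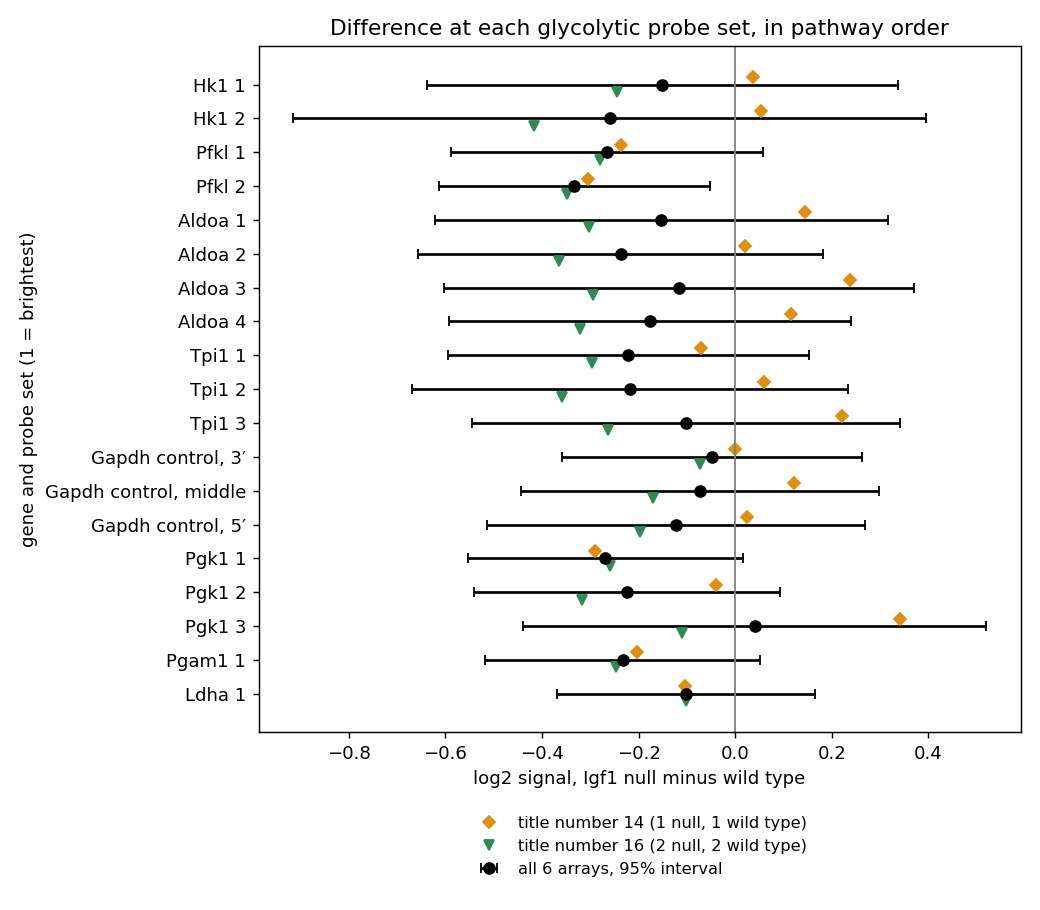
Difference in log2 signal, Igf1 null minus wild type (horizontal axis), at 16 glycolytic probe sets and 3 Gapdh control probe sets (vertical axis, pathway order). Black points and lines give the difference over all 6 arrays with its 95% interval, diamonds the difference between the arrays of title number 14 and triangles that of title number 16. The intervals cross 0 except at the dimmer Pfkl probe set, and the 1 positive difference, of Pgk1, is negative on the deposited values, where the median of all probe sets is -0.15. The 3 Gapdh differences turn positive after median centring.

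Over the 16 probe sets, null replicate 3 was the lowest array at 12 and wild type replicate 3 the highest at 11. Mean deviations from the average of the 6 arrays were -0.0063, -0.04 and -0.24 in null replicates 1 to 3, against -0.0052, 0.08 and 0.21 in wild type replicates 1 to 3. Replicate 1 of both genotypes thus had nearly the same mean signal over the 16 probe sets, 7 of which belong to Aldoa and Tpi1. Over the 7 genes, each at its brightest probe set, the mean deviations were -0.08, -0.03 and -0.19 in null replicates 1 to 3, against 0.02, 0.12 and 0.16 in wild type replicates 1 to 3. Without null replicate 3 the median difference of the 16 was -0.10, with 13 of 16 lower.

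Within the arrays of title number 14, null replicate 1 stood below wild type replicate 1 at Pfkl (-0.24 and -0.31), Pgk1 (-0.29 and -0.04), Pgam1 (-0.20), Ldha (-0.10) and 1 Tpi1 probe set (-0.07). It stood above it at both Hk1 and all 4 Aldoa probe sets, by 0.02 to 0.24, at the other 2 Tpi1 probe sets by 0.06 and 0.22, and at the dimmest Pgk1 probe set by 0.34. Within title number 16, with 2 null and 2 wild type arrays, all 16 probe sets were lower in the null arrays, from -0.42 at Hk1 to -0.10 at Ldha, with a median of -0.30, against 48.9% of all probe sets lower in these arrays, and 9 had no overlap, against 16.7% of all probe sets. Both Pfkl probe sets, Pgam1, Ldha and the brightest Pgk1 probe set thus had mean differences of like size under both title numbers. Title number 14 held only 1 array of each genotype. Within title number 16, null replicate 2 minus wild type replicate 2 was 0.02 at Ldha and -0.11 at that Pgk1 probe set. For null replicate 3 minus wild type replicate 3 the values were -0.22 and -0.41. Both Pfkl probe sets and Pgam1 were lower in either comparison, from -0.44 to -0.18. The labels state no pairing of these pools, so matching them by replicate number is arbitrary.

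**Figure D3:**
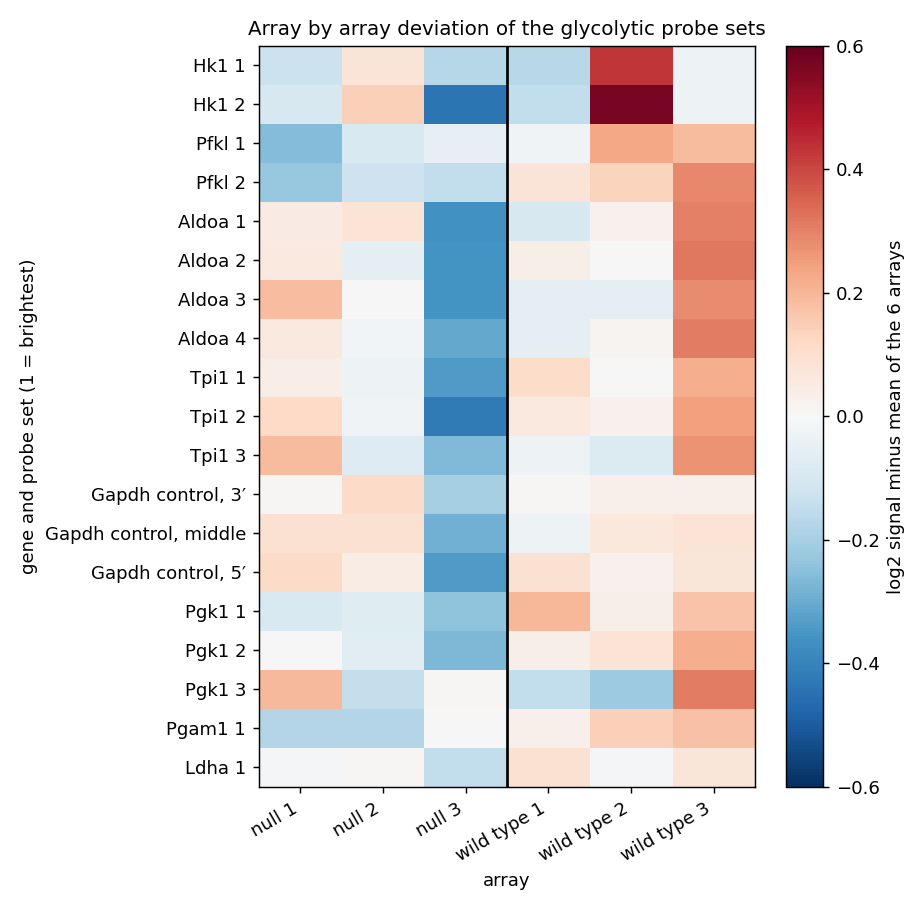
Deviation of log2 signal from the mean of the 6 arrays (colour) at each glycolytic probe set (rows, pathway order) in the null arrays (left of the line) and the wild type arrays (right of it). Null replicate 3 is lowest at all Aldoa and Tpi1 rows and wild type replicate 3 highest there, while Hk1 is highest in wild type replicate 2.

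Over the 6 arrays the 7 genes at their brightest probe sets had pairwise Pearson correlations from 0.05 (Hk1 with Ldha) to 0.95 (Tpi1 with Ldha), with a median of 0.34 over 21 pairs. Tpi1, Pgk1 and Ldha formed 1 group with correlations of 0.88 to 0.95, Aldoa ran with Tpi1 (0.86), Pfkl ran with Pgam1 (0.92), and Hk1 was nearest to Pfkl (0.62). These points share their arrays and the genotype difference, and 6 arrays support description only. Of 7429 other genes above the 40th percentile of level, the 5 closest to the mean of the 7 were Pdia5, a protein disulphide isomerase gene (r = 0.997), the lysosomal galactosidase gene Glb1 (0.988), the sialyltransferase gene St3gal2 (0.987), the basement membrane gene Nid2 (0.985) and the tRNA splicing gene Tsen34 (0.981).

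Markers of muscle and neurons differed widely between arrays and moved with some of the members. Summed signal of 10 skeletal muscle markers spanned 3.39-fold over the arrays, at log2 14.63, 14.05 and 12.90 in null and 14.02, 12.87 and 14.63 in wild type arrays. Of 8 neuron markers the summed signal spanned 3.55-fold, at 12.25, 12.66 and 11.65 in null and 11.61, 13.44 and 11.73 in wild type arrays. Neither separated the genotypes: medians of the single-gene differences were 0.01 for muscle, with 3 of 10 lower, and -0.11 for neurons, with 5 of 8 lower, and no marker of either list was at background.

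Muscle signal was highest in null replicate 1 and wild type replicate 3, and wild type replicate 3 was also the highest array at Aldoa and Tpi1. It was low in null replicate 3, the lowest array at both genes, but lower still in wild type replicate 2, which lay above null replicate 3 at each of their probe sets. Over the 6 arrays the mean of the muscle markers correlated with Aldoa at 0.65 to 0.83 and with Tpi1 at 0.71 to 0.86. The values were 0.64 with Ldha, 0.42 to 0.67 with Pgk1 and 0.47 to 0.68 with the Gapdh control probe sets. With Pfkl they were -0.36 and 0.07, with Pgam1 -0.26 and with Hk1 -0.47 and -0.22. The mean of the neuron markers correlated with Hk1 at 0.91 and 0.92, and both were highest in wild type replicate 2 and next in null replicate 2.

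Cartilage markers, in contrast, were lower in the null arrays, as 9 of 10 had a lower mean with a median of -0.32. Their summed signal lay at 14.43, 14.76 and 14.88 in null and at 14.78, 14.99 and 15.06 in wild type arrays, with null replicate 3 above wild type replicate 1. None of the 10 was at background. The mean of these markers correlated with Pfkl at 0.94 and 0.85 and with Pgam1 at 0.88 over the 6 arrays, against 0.43 or less for the other members. With the cartilage markers as a covariate, an alternative chosen after these values were seen, Pfkl differed by -0.10 and -0.23 and Pgam1 by -0.13, while Pgk1 at its brightest probe set differed by -0.33. As these markers ran with Pfkl and Pgam1 and were themselves lower in the null arrays, a smaller difference was built into this fit. Their part in the differences of Pfkl and Pgam1 was not tested.

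**Figure D4:**
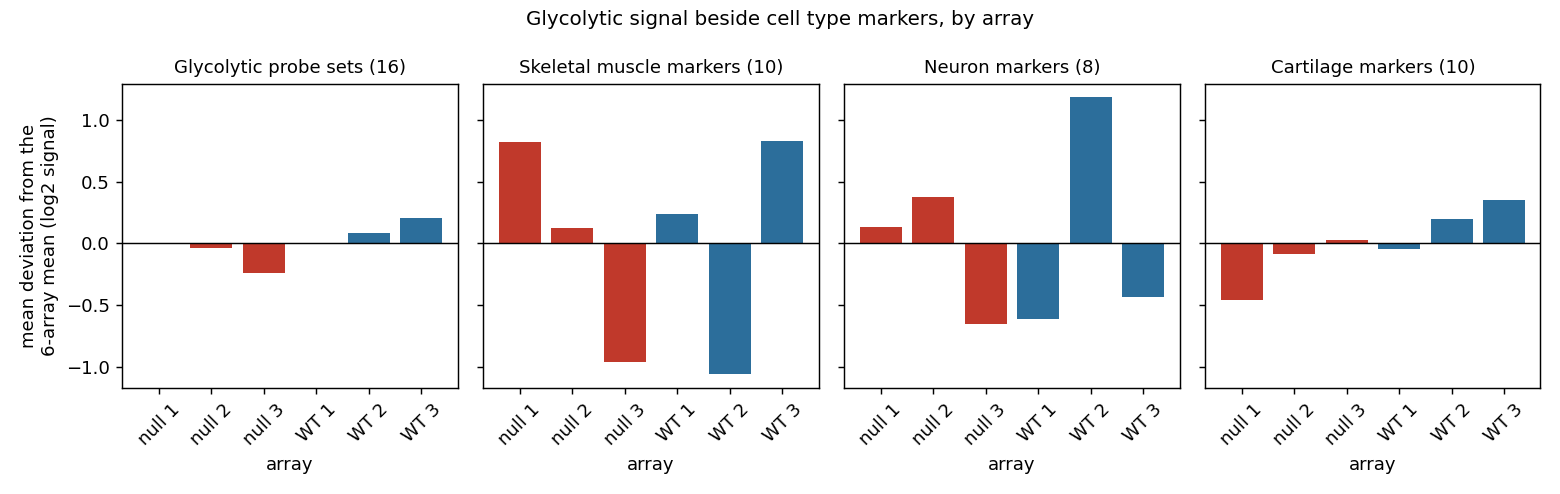
Mean deviation in log2 signal from the 6-array mean (vertical axis) in the null arrays (red) and wild type arrays (blue), for the 16 glycolytic probe sets, 10 skeletal muscle, 8 neuron and 10 cartilage markers. Muscle and neuron markers spread over more than 1 log2 unit within each genotype, and the glycolytic probe sets by -0.24 to 0.21 in all.

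Other cell types were represented by shorter lists. All 5 measured osteoblast markers were lower (median -0.20, summed signal 12.94 to 13.39 in null and 13.14 to 13.48 in wild type arrays), as were 5 of 5 endothelial (-0.17, 9.17 to 9.43 and 9.40 to 9.60) and 4 of 5 macrophage markers (-0.25, 9.88 to 10.25 and 10.21 to 10.29). Of 5 measured erythroid markers 3 were lower (-0.28, 7.12 to 7.75 in null and 7.97 to 8.43 in wild type arrays), with Epb42 and Hba-a1 at background. Hair cell markers were higher in 7 of 8 (0.49, 8.57 to 8.85 and 8.46 to 8.68), with Slc26a5 and Espn at background, and so were 7 of 10 cochlear epithelium and fibrocyte markers (0.25, 11.31 to 11.79 and 11.07 to 11.57), with Otos at background. All 3 measured vestibular markers were higher (0.70, 10.75 to 11.70 and 9.996 to 10.48), with Hmx2 at background, although vestibular tissue had been removed. Background here means a level of 3.87 or less in both genotypes, the highest Y-linked reading in the 3 arrays with the least Y-linked signal. Osteoblast markers, whose mean was lowest in null replicate 3, correlated over the 6 arrays with Tpi1 at 0.68 to 0.88, with Aldoa at 0.71 to 0.81, with Ldha at 0.74 and with Pgk1 at 0.73 and 0.88 (0.07 at its dimmest probe set). The osteoblast values were 0.45 and 0.66 with Hk1 and 0.66 to 0.87 with the Gapdh control probe sets. Cochlear epithelium and fibrocyte markers, whose mean was highest in null replicate 3, correlated with Hk1 at -0.88 and -0.76, with Aldoa at -0.84 to -0.65 and with Tpi1 at -0.73 to -0.48. With the Gapdh control probe sets they correlated at -0.89 to -0.71, and with Pgk1 at -0.48 and -0.75 (0.07 at its dimmest probe set). Endothelial markers correlated with Pfkl at 0.76 and 0.55 and with Hk1 at 0.71 and 0.63. Hair cell markers correlated with Pgk1 at -0.89 and -0.66 (0.21 at its dimmest probe set) and with Ldha at -0.76. For vestibular markers the values were -0.66 and -0.82 with Hk1, -0.74 with Ldha and -0.70 to -0.28 with Tpi1. With Pgk1 they were -0.75 and -0.74 (0.41 at its dimmest probe set), and with the Gapdh control probe sets -0.76 to -0.72. The part of these cells in the glycolytic values was not tested.

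Y-linked signal, which marks male embryos in a pool, was uneven between the pools. The mean signal of 3 Y-linked genes, each at its brightest probe set, was 3.10, 5.92 and 5.54 in null replicates 1 to 3. In wild type replicates 1 to 3 it was 0.24, 5.61 and 1.19. A covariate was formed as the mean over all Y-linked probe sets. With it the median of the 16 probe sets was -0.15 with 15 lower, and the X-linked Pgk1 differed by -0.22 at its brightest probe set.

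RNA quality was read from the same Gapdh control probe sets and from those of beta-actin. For Gapdh the 3′ signal exceeded the 5′ signal by 0.18, 0.36 and 0.43 in null arrays, against 0.21, 0.30 and 0.25 in wild type arrays. For beta-actin the 3′ excess was 0.75, 0.95 and 1.12 in null and 0.73, 0.65 and 0.80 in wild type arrays. Null replicate 3, the lowest array at most members, had the largest 3′ excess of both genes. The genotypes differed by 0.07 for Gapdh (exact permutation p = 0.4) and 0.21 for beta-actin (p = 0.2, exact), and whether this bears on the members was not tested.

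The remaining glycolytic isoenzymes had a wider scatter around 0. In 10 of the 16 measured the null mean was below and in 6 above the wild type mean, the median difference being -0.06, and 0 of them passed an adjusted p of 0.05 or an unadjusted p of 0.05 in limma. Pkm, the pyruvate kinase of most tissues and the step between enolase and lactate dehydrogenase, followed the members, with 10.55, 10.50 and 10.42 in null against 10.59, 10.72 and 10.72 in wild type arrays. The genotypes did not overlap at Pkm, which differed by -0.18 ± 0.10 (SE). The inducible hexokinase gene Hk2 differed by -0.34 ± 0.23 with overlap. Isoenzymes of the Pfkl, Aldoa and Ldha steps that were above background did not follow these members. Pfkm differed by -0.05 ± 0.16, Pfkp by -0.01 ± 0.39, Aldoc by 0.02 ± 0.24 and Ldhb by 0.12 ± 0.10 (SE), all with overlap. Background was the level of 3 of the 16 genes, among them the hexokinase-like gene Hkdc1 (1.63 in null and 2.40 in wild type arrays). Gapdhs, the sperm form of Gapdh, lay at its edge (3.40 and 4.09). Above background were 13 of the 16, and 9 of these had a lower null mean, with a median of -0.07.

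Of 13 measured genes of glucose and lactate transporters 11 had a lower null mean, with a median of -0.13, and 0 were without overlap or at an unadjusted p under 0.05 in limma. Above background were 9 of the 13, and 8 of these had a lower null mean. Slc16a3, the lactate exporter of glycolytic cells, had 6.36, 5.50 and 5.51 in null and 6.19, 6.49 and 7.03 in wild type arrays, a difference of -0.78 ± 0.34 (SE) in which null replicate 1 stood among the wild type arrays. The glucose transporter gene Slc2a10 differed by -0.48 ± 0.21 and the widespread transporter gene Slc2a1 by -0.13 ± 0.21. Slc2a5, a fructose transporter gene (3.46 in null and 4.02 in wild type arrays), and Slc2a2 (-3.97 and -2.60) lay at or near the background level defined above.

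Regulators, the pyruvate dehydrogenase step and glycogen genes had more lower than higher means, with small medians. Among 11 genes of glycolytic switches and gluconeogenesis 7 were lower, with a median of -0.06. Pfkfb3, whose enzyme makes the activator of phosphofructokinase, differed by -0.16 ± 0.10 (SE) without overlap, and Pck2 by 0.13 ± 0.10. Fbp2 (3.55 in null and 3.18 in wild type arrays) was at background and Pck1 (3.98 and 3.49) at its edge. Of 9 genes of pyruvate dehydrogenase, its kinases and pyruvate import 8 were lower (median -0.10), led by the kinase gene Pdk1 at -0.23 ± 0.18, with Dld at -0.14 ± 0.19, the subunit gene Pdha1 at -0.14 ± 0.14 and Pdk2 at -0.10 ± 0.13. Of 10 glycogen genes 7 were lower (median -0.11), among them Pygl at -0.33 ± 0.16, Gaa at -0.28 ± 0.15, Pgm2 at -0.27 ± 0.17 and Pgm1 at -0.17 ± 0.16.

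The pentose phosphate pathway, which branches from glycolysis at glucose 6-phosphate to make NADPH and ribose, showed both directions. A lower null mean was found for 5 of its 7 measured genes and a higher one for 2, the median difference being -0.06. The first enzyme of its oxidative branch, encoded by G6pdx, was not analysed here. The other cytosolic genes of that branch, Pgd and Pgls, had every null array above every wild type array. Pgd had 9.33, 9.20 and 9.34 in null against 9.03, 9.06 and 9.08 in wild type arrays, and Pgls 9.53, 9.40 and 9.11 in null against 9.02, 9.01 and 9.07 in wild type arrays. Pgd differed by 0.23 ± 0.09 and Pgls by 0.31 ± 0.14 (SE), where 5.58% of all genes were without overlap and higher. H6pd, the related enzyme of the endoplasmic reticulum, differed by -0.34 ± 0.12 (SE, adjusted p = 0.974, limma) and Rpia, the isomerase that makes ribose phosphate, by -0.20 ± 0.10, both without overlap. In 3 of the 7 genes every null array lay below every wild type array, against 4.99% of all genes. The 7 glycolytic genes had the same count.

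Genes of the citric acid cycle, the mitochondrial fate of pyruvate, were evenly placed. The null mean was below the wild type mean for 8 of 17 measured genes and above it for 9, the median difference was 0.0084, and 0 were without overlap. Idh2 differed by -0.15 ± 0.14, Idh3b by 0.10 ± 0.10, Fh1 by 0.15 ± 0.16 and Mdh2 by 0.11 ± 0.11 (SE). The difference in median between this list and the glycolytic genes was not tested.

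Genes of the hypoxia pathway other than the glycolytic ones had a median of -0.24, near that of the members. Of 20 measured 19 were lower, and 10 had every null array below every wild type array, against 4.99% of all genes. An unadjusted p under 0.05 with lower signal was found for 7, against 2.4% of all genes, but 0 passed an adjusted p of 0.05 in limma. Ddit4, a stress-induced inhibitor of the growth kinase mTOR, had 8.78, 8.62 and 8.29 in null against 9.32, 9.31 and 9.19 in wild type arrays, a difference of -0.71 ± 0.15 (SE, adjusted p = 0.864, limma). The collagen hydroxylase genes P4ha2 and P4ha1 differed by -0.50 ± 0.11 and -0.31 ± 0.11, and Vhl, whose product marks HIF proteins for destruction, by -0.36 ± 0.13. Vegfa, the vascular growth factor gene, read 6.65, 6.68 and 5.43 in null against 7.39, 6.97 and 7.35 in wild type arrays, a difference of -0.98 ± 0.38. Hif1a itself had 8.88, 8.94 and 8.97 in null and 9.19, 8.83 and 9.02 in wild type arrays, which overlapped, with a difference of -0.08 ± 0.12. An earlier analysis of these arrays had already shown hypoxia and glycolysis genes as lower, and the list does not add independent evidence.

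**Figure D5:**
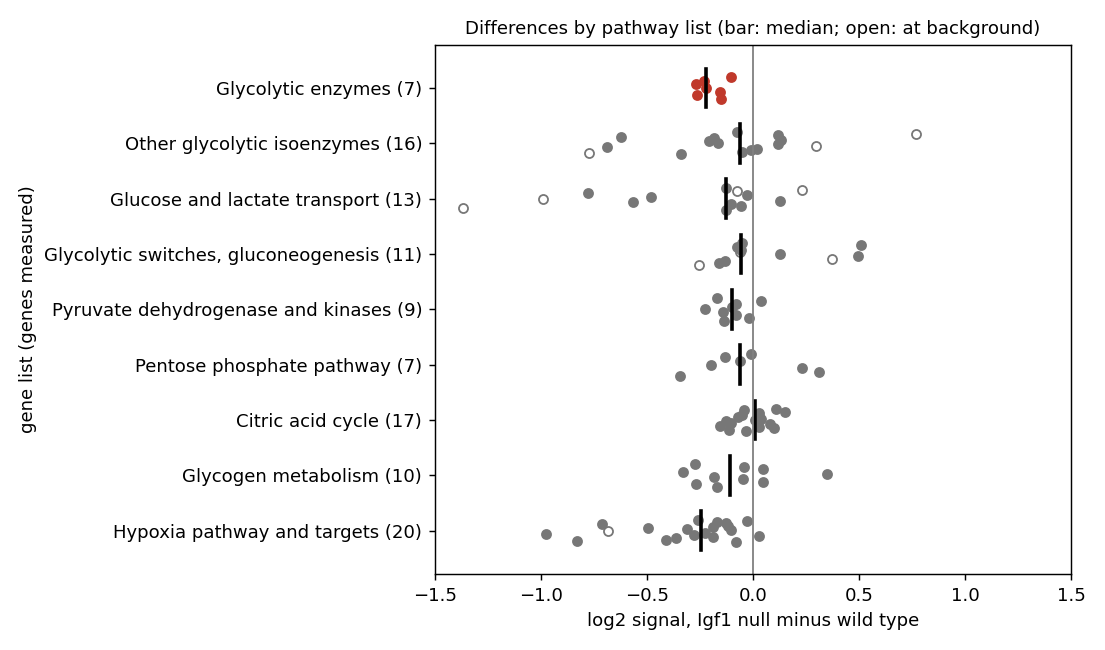
Difference in log2 signal, Igf1 null minus wild type (horizontal axis), of each measured gene at its brightest probe set in 9 pathway lists (vertical axis, with the number of genes). Points are genes, open where both genotypes were at background, and black bars list medians. The glycolytic enzymes lie within -0.27 to -0.10 (Ldha turns positive after median centring), around the same median as the hypoxia list, while citric acid cycle genes lie on both sides of 0.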

How the data were processed

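RNA of 6 pooled samples of mouse cochleae was labelled with biotin and hybridised to 1 Affymetrix array each, per the labels. Values of 22690 probe sets were deposited as log2 signals, a scale read from their range, while how probes were summarised and background removed is not given in the sources used here. The deposited arrays were not on a common scale, so they were quantile normalized over all probe sets, and the 64 control probe sets were then left out of tests. Of the rest, 20380 were annotated to 1 gene, 691 to several and 1555 to none, in the platform annotation. Current symbols came from the Entrez identifier in RefSeq (GRCm38.p6), where 29 had no match and kept the annotated symbol. Genes are represented by their brightest single-gene probe set.

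Null and wild type arrays were compared in R 4.3.3 by limma 3.58.1, with lmFit and eBayes, genotype as the only term and two-sided tests, fitted across all 22626 probe sets, or all 12393 genes, with Benjamini-Hochberg adjustment and a threshold of 0.05. Values of 95% intervals come from that fit, and for the Gapdh control probe sets from the same fit with controls included. Single values were also tested with an exact permutation test over all ways to assign 3 of the 6 arrays (two-sided, smallest p 0.1). Replicates are separate pools of embryos. The procedure was tested on simulated data. Deviations of same-numbered replicates from their genotype means correlated at 0.04, 0.10 and 0.02 for replicates 1 to 3 over all probe sets, and at 0.14, 0.29 and 0.12 over those above the 40th percentile of level, where all members lay and where other pairs ran from -0.21 to 0.05. The labels state no pairing, so the fit has no block, and results of the replicate block are given beside it.

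The members, pathway lists and markers were chosen with earlier results of these data known. Named were all members at each probe set and up to 4 genes of each other pathway list by smallest p. Also named were Pkm, Slc2a1, Hif1a, Vegfa, Igf1 and the 5 genes most like the members. Tecta, Coch, Otos, Pfkm, Pfkp, Aldoc and Ldhb were named after their values were seen. Alternatives comprised the deposited values, median centring, blocks by replicate or title number, variance models, array weights (statmod 1.5.0), covariates, a pseudocount of 32, filters at the 40th and 80th percentile of level, other probe set choices, and leaving out arrays. Promoter sequences are from RefSeq, build GRCm38.p6.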

Additional observations from a re-analysis of the deposited data

How the results depend on the processing

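The count of probe sets past an adjusted p of 0.05 was 0 in limma under every alternative fit, and 1131 probe sets had an unadjusted p under 0.05. The median over the 16 glycolytic probe sets was negative under every alternative, and ran from -0.25 to -0.10 when single arrays were left out, with 13 to 16 probe sets lower and 5 to 8 without overlap. Over the 7 genes the median ran from -0.24 to -0.11 without single arrays, with 6 to 7 lower and 3 to 5 without overlap. Leaving out an array can only raise the counts without overlap. The shares of all probe sets and genes without overlap in these fits were not computed. After median centring the median over genes was -0.11, and probe sets and genes without overlap numbered 1 and 0; the cause was not tested. Without both arrays of title number 14, with fewer arrays to overlap, 9 probe sets were without overlap. Leaving out probe sets with suffixes of shared probes left 9 probe sets, of which 9 were lower. With the replicate block 0 probe sets passed, and of the members' calls only the unadjusted ones of Pfkl and Pgk1 changed. Blocks by replicate or title number are balanced over the genotypes, and the variance models leave differences unchanged. In these fits the median of the 16 thus stayed at -0.22 by construction, and no sign could turn. A covariate of Y-linked signal gave -0.15.

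Over 20 alternative fits the sign turned at 5 probe sets, none past the threshold under any of them. The dimmest Pgk1 probe set turned to -0.10 on deposited values (where all probe sets had a median of -0.15), -0.11 without title number 14 and -0.13 with array weights, and ran from -0.059 to 0.20 without single arrays. Ldha was at 0.020 after median centring. Without single arrays the third Aldoa probe set ran from -0.24 to 0.033, the third Tpi1 probe set from -0.22 to 0.0068 and the brighter Hk1 probe set from -0.27 to 0.025. Signal over background does not limit the members, which all lay above the 70th percentile of level, while it limits Slc2a2, Slc2a5, Hkdc1 and Gapdhs.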
